A study of Oryza sativa with 24 samples.

Results

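The change in small RNA levels between 2 h and 6 h of osmotic treatment was examined in rice (Oryza sativa) seedlings. The samples are those titled as 6 hour and 2 hour PEG treatment, which are 8 of the 24 arrays of the series and 4 of its 12 small RNA libraries, with 2 libraries at each time. All 224 sets of spots on the arrays were compared, 6 h minus 2 h, with the libraries paired by their number. Both groups had received 15% PEG6000, so neither is an untreated control. PEG6000 is a polymer too large to pass into cells that lowers the water potential of the solution around the roots. Per the labels' protocols, the seedlings grew in Yoshida's culture solution on a cycle of 13 h light (26 °C) and 11 h dark (22 °C). The series holds no untreated seedlings sampled at 2 h or 6 h. A difference in time of day therefore cannot be told apart from the length of treatment. The sources used here name neither cultivar nor seedling age. The treated seedlings of 0.5 h, 24 h and 48 h, grown and treated alike, served for the estimate of the spread and for the steps before and after, and the 0 h libraries were not used.

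Plant microRNAs are short RNAs that an Argonaute protein carries to messenger RNAs with a nearly complementary site, where the target is cleaved or its translation is blocked. Many of the conserved plant microRNAs target transcription factors, hormone receptors and enzymes of nutrient and copper use, and several of these families are known to respond to water deficit. A microRNA level in seedling tissue can therefore mark a change in how a set of target genes is held down. The files used here give probe codes (R or N with a number) and do not pair them with microRNA names or sequences, so no family or target can be assigned to a change described below, and at most 2 sets that rose and 2 that fell are named by rule. The arrays hold no marker of tissue or cell type against which the seedling label could be checked. In RNA from seedlings in bulk, fewer cells that hold a small RNA and less of it per cell cannot be told apart.

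Each array carried 896 spots, or 224 sets of 4 neighbouring spots under 223 codes, and was read in 1 colour (Cy5). The median spot intensity of the 2 h arrays was 378 and 217 for the hybridizations of library 1 and 450 and 200 for those of library 2. On the 6 h arrays it was 237 and 206, and 239 and 277. The medians thus overlapped between the times. The 5th percentile was 140, 82.0, 137 and 29.6 on the 2 h arrays and 53.0, 52.4, 35.7 and 34.7 on the 6 h arrays, so 3 of the 4 arrays at 2 h had a higher floor than any at 6 h. Between 2 and 6 spots per array reached an intensity of 65000, the scanner's ceiling, at 2 h and between 3 and 14 at 6 h. Precision was limited by having 2 libraries at each time. Since separate plants are not stated as their source, a p-value here measures library spread that may be technical.

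**Figure D1:**
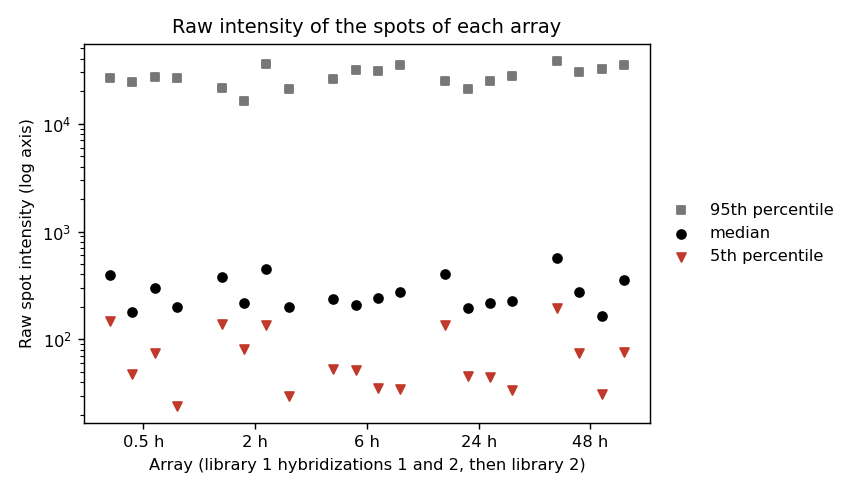
Raw spot intensity (log axis) of the 20 arrays of the treated times, in the order of library and hybridization within each time, with marks at the 5th percentile, the median and the 95th percentile of the 896 spots. The medians lie between 200 and 450 at 2 h and between 206 and 277 at 6 h, and the 5th percentiles lie between 29.6 and 140 at 2 h and between 34.7 and 53.0 at 6 h.

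From 2 h to 6 h, 35 of the 224 sets changed, of which 17 rose and 18 fell. Called at an adjusted p under 0.05 were therefore 15.6% of the sets (7.59% up and 8.04% down), by limma's moderated test with the library number as a block and Benjamini-Hochberg adjustment over all sets. The changes were modest: the size among the 35 ran from 0.37 to 1.34 on the log2 scale with a median of 0.72, against a median size of 0.21 and a median standard error of 0.13 over all sets. Only R63 and R277 changed by more than 1 on that scale. The median change of all sets was 0.02 after quantile normalization, which gives every array the same distribution and so places it near 0. An unadjusted p under 0.05 was reached by 73 sets.

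The number of calls rested on the pairing of the libraries and on both 6 h libraries. Which sets were called also changed when either 2 h library was left out, although the number stayed similar. Without the block the same data gave 1 called set, R108 (0.446%), and 33 at an unadjusted p under 0.05, with a median standard error of 0.18 in place of 0.13. Leaving out the first 6 h library gave 6 calls and leaving out the second gave 10, whereas leaving out the first or second 2 h library gave 31 and 33. The split by direction moved with the scaling between arrays: 26 rose and 53 fell without any scaling, where the median of all sets was -0.33, 60 rose and 43 fell after median scaling, and 15 rose and 26 fell after cyclic loess. Of the 35 sets called with quantile normalization, 18 were among the 79 called without scaling, 23 among the 103 called after median scaling and 32 among the 41 called after cyclic loess.

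In spite of the small changes the library pairs moved together across sets. Of the 224 sets, 163 (72.8%) moved the same way in the library 1 pair and the library 2 pair, 88 up in both and 75 down in both. The differences of the pairs correlated across sets with a Pearson r of 0.66 and a Spearman rho of 0.67 (n = 224 sets, which share the arrays and their scaling and are not replicates). The 35 called sets all moved the same way in both pairs, which a small p requires with 2 pairs. Among the 189 sets that were not called, 128 still moved the same way, with an r of 0.38 across sets.

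**Figure D2:**
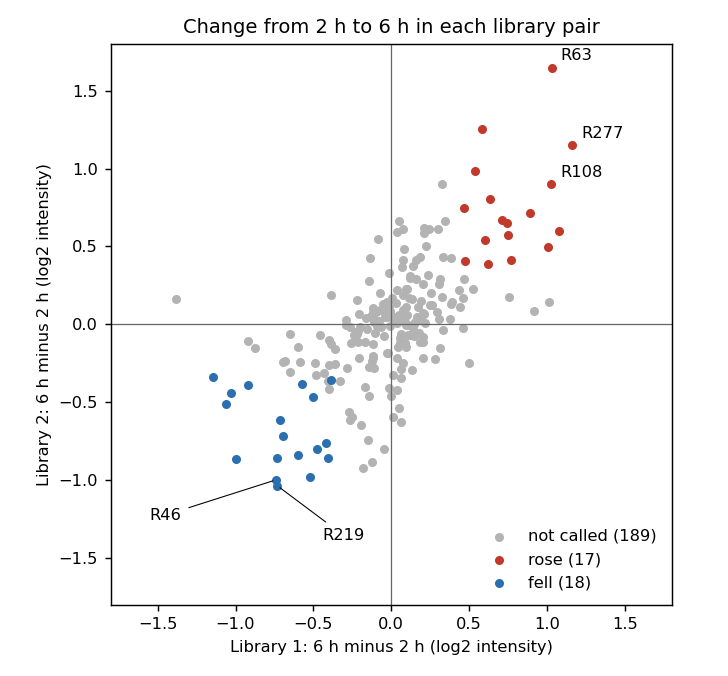
Change of each of the 224 spot sets from 2 h to 6 h in library 1 (horizontal) and in library 2 (vertical), both in log2 intensity, with the sets that rose (17) and fell (18) in colour. The named sets R63, R277 and R108 lie at the upper right and R46 and R219 at the lower left.

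The overlap of the values between the times was counted separately from the test. Both 6 h libraries lay above both 2 h libraries in 57 sets and below them in 34, or 40.6% of sets. All 4 arrays of 6 h lay above all 4 of 2 h in 21 sets and below them in 11, or 14.3%. Of the 35 called sets, 29 had libraries that did not overlap and 21 had arrays that did not overlap (14 of the 17 that rose and 7 of the 18 that fell). The paired test thus also called sets whose libraries overlapped between the times.

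The sets named first are the 2 with the largest rise and the 2 with the largest fall among those called whose libraries did not overlap, so their sizes stand at the upper end by choice. R63 rose furthest. Its log2 intensity at 2 h was 12.76 and 12.97 on the arrays of library 1 and 12.30 and 12.42 on those of library 2, and at 6 h it was 14.05 and 13.73, and 14.02 and 13.99. Every 6 h array stood above every 2 h array, and the set moved from rank 28 to 37 by brightness among the 224 sets to rank 17 to 21. The library means went from 12.61 ± 0.36 to 13.95 ± 0.08 (SD, n = 2), which is a log2 change of 1.34 ± 0.24 (SE) with a 95% interval of 0.79 to 1.88, a fold of 2.53 (limma, adjusted p = 0.00938). The mean raw intensity went from 4858 to 17434, so the rise was also present before scaling. It was 1.03 in the library 1 pair and 1.65 in the library 2 pair. R63 missed the threshold without the block (adjusted p = 0.0691), when the first (0.0924) or the second 6 h library (0.0744) was left out. Over its alternatives the change ran from 0.90, when the second 2 h library was left out, to 2.06, with median scaling, and the adjusted p reached 0.170.

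R277 was the other large rise, at a dimmer level. Its log2 intensity was 8.87, 8.85, 9.39 and 9.37 on the 2 h arrays and 9.88, 10.16, 10.95 and 10.11 on the 6 h arrays, in the order library 1 then library 2. The arrays did not overlap, and the libraries differed by a similar amount at both times, with library 2 higher. The means went from 9.12 ± 0.37 to 10.28 ± 0.36 (SD, n = 2), which is a log2 change of 1.16 ± 0.15 (SE) with a 95% interval of 0.81 to 1.50 and a fold of 2.23 (limma, adjusted p = 0.0021). The pairs gave 1.16 and 1.15, almost the same value. Without the block the adjusted p was 0.0691, within a range of 1.36e-06 to 0.209 over the alternatives, and the change stayed between 0.97 and 1.44.

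The largest fall of all 224 sets was in R218, with a log2 change of -0.93 (limma, adjusted p = 0.000907). Its libraries overlapped between the times, so the rule left it out, and it is named here after its values were seen. Its adjusted p without the block was 0.666. R219 had the largest fall of the sets named by rule. It stood at 9.91, 9.39, 10.76 and 10.10 on the 2 h arrays and at 9.11, 8.72, 9.07 and 9.72 on the 6 h arrays. The library means did not overlap but the arrays did, since the second hybridization of library 2 at 6 h (9.72) lay above that of library 1 at 2 h (9.39). The means went from 10.04 ± 0.55 to 9.16 ± 0.34 (SD, n = 2), so the log2 level of R219 fell by 0.88 ± 0.17 (SE), or 1.85-fold (limma, adjusted p = 0.00951). The 95% interval ran from -1.26 to -0.50. Of the pairs, library 1 gave -0.73 and library 2 gave -1.03. It missed the threshold without the block (adjusted p = 0.570, the highest over its alternatives), without library 2 of 6 h (0.100) and with the second hybridizations only (0.0548), where the change was -0.58. Median scaling gave the same rounded size, -0.58.

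R46 was among the brightest sets. It stood at 14.45, 14.12, 15.28 and 14.53 on the 2 h arrays and at 13.53, 13.56, 14.24 and 13.58 on the 6 h arrays. The first hybridization of library 2 was the highest array at each time, and its 6 h value overlapped the lowest 2 h value. The means went from 14.60 ± 0.44 to 13.73 ± 0.26 (SD, n = 2), so R46 fell by 0.87 ± 0.11 (SE), with a 95% interval of -1.11 to -0.62 and a fold of 1.83 (limma, adjusted p = 0.00193). None of its spots reached the ceiling on these arrays (0 spots). The size of the fall depended on the scaling. The mean raw intensity went from 23307 to 15704, and the change was -0.48 without scaling (adjusted p = 0.103) and -0.22 with median scaling (adjusted p = 0.166), within a highest adjusted p of 0.449 over its alternatives. Without the block the adjusted p was 0.152.

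R108 is named because it was the only set called both with and without the block, a choice made after its values were seen. It stood at 8.72, 8.93, 8.66 and 9.11 on the 2 h arrays and at 9.88, 9.82, 9.95 and 9.63 on the 6 h arrays. The arrays did not overlap, and the libraries of a time lay closer together than in the other named sets. The means went from 8.85 ± 0.04 to 9.82 ± 0.05 (SD, n = 2), which is a log2 change of 0.96 ± 0.10 (SE) with a 95% interval of 0.74 to 1.19 and a fold of 1.95 (limma, adjusted p = 0.000907). Without the block the adjusted p was 0.00598. It missed the threshold under 1 of 24 alternatives, without block and scaling together (adjusted p = 0.224, the highest), and its change ran from 0.76 to 1.12.

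**Figure D3:**
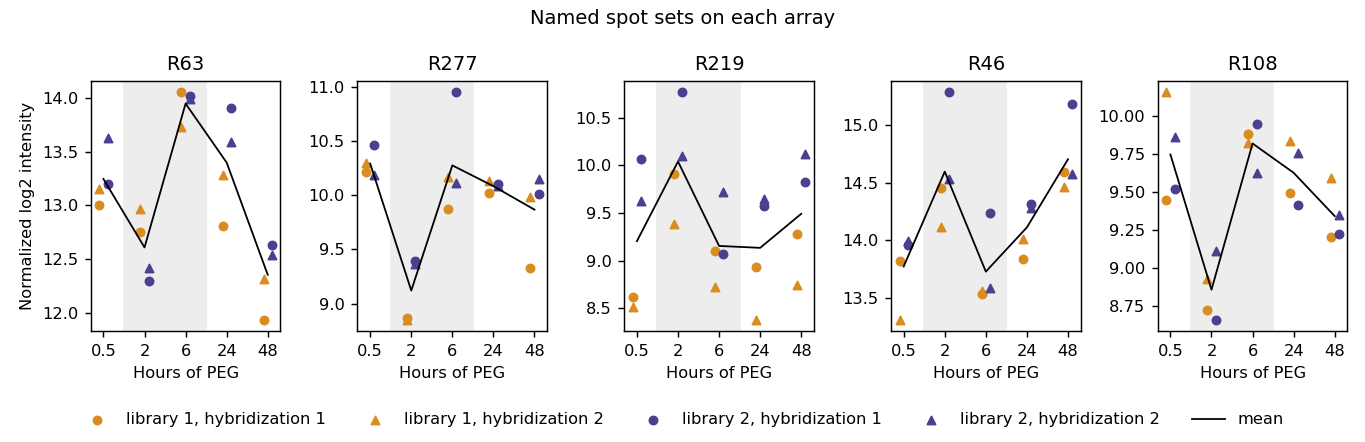
Normalized log2 intensity of R63, R277, R219, R46 and R108 on the 4 arrays of each treated time (hours of PEG, evenly spaced), with colour for the library, shape for the hybridization, a line through the mean of each time and 2 h and 6 h shaded. The arrays of R63, R277 and R108 do not overlap between 2 h and 6 h, and those of R219 and R46 do.

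Called sets lay in every sub-grid of the array, with rises and falls uneven between sub-grids as given below, but not at every brightness level. The sets were ordered by mean level and divided into 4 groups of 56. In the dimmest group, with mean levels of 6.77 to 7.34, 0 of 56 were called by limma (5 at an unadjusted p under 0.05), and the median size of the change there was 0.085. In the next group 6 of 56 were called (4 rose and 2 fell), in the one above it 13 (6 and 7) and in the brightest, with levels of 11.09 to 15.90, 16 (7 and 9). The offset of 50 added before the log understates changes of dim sets, and some arrays held raw intensities below it. Of the 10 sets with a spot at the ceiling at the treated times, 2 were called, 1 in each direction.

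**Figure D4:**
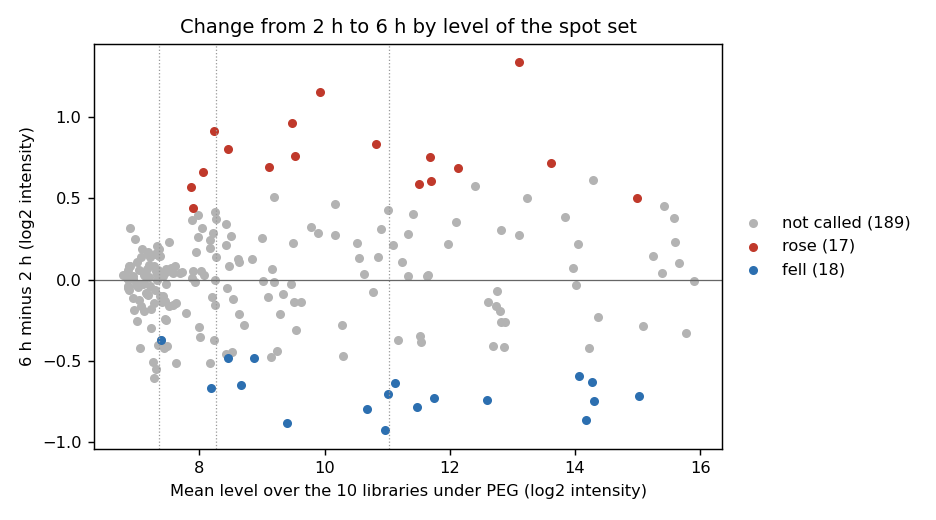
Change from 2 h to 6 h of the 224 spot sets (vertical, log2 intensity) against their mean level over the 10 libraries under PEG (horizontal, log2 intensity), with dotted lines at the borders of the 4 groups of 56. None of the 56 dimmest sets (0) was called, and 16 of the 56 brightest were.

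By code letter, 2 of the 14 sets under N rose and 0 fell by limma (3 had an unadjusted p under 0.05), and 15 of the 210 sets under R rose and 18 fell, which is 14.3% and 15.7% called. What the letters stand for is not stated in the labels or files. The 4 sub-grids of the array held 56 sets each and had 9, 11, 7 and 8 called sets. One of them held 9 of the 17 sets that rose and 2 of those that fell, and another held 1 and 6. Code R105 stands at 2 places of the array with different levels. Its sets went from 7.26 to 7.47 and from 8.14 to 8.34, log2 changes of 0.21 and 0.19 that did not pass (limma, adjusted p = 0.277 and 0.498).

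Levels at the other treated times place the step. Taken relative to each set's mean over the 5 treated times, the 17 sets that rose had median levels of 0.11 at 0.5 h, -0.50 at 2 h, 0.23 at 6 h, 0.15 at 24 h and 0.01 at 48 h. The 18 that fell had -0.11, 0.31, -0.32, -0.03 and 0.06. The sets were chosen on the 2 h and 6 h values, so the contrast of these times is given by the choice, and the other times are the ones to read. Against the mean of 0.5, 24 and 48 h, the sets that rose stood at a median of -0.60 at 2 h and 0.19 at 6 h, and those that fell at 0.34 and -0.29. These distances use the values on which the sets were chosen, so large ones are favoured by the choice. Over all 224 sets the median size of the distance was 0.14 at 2 h and 0.10 at 6 h. The 2 h value was the farther one in 12 of the 17 sets that rose (70.6%), in 9 of the 18 that fell and in 125 of all 224 sets (55.8%). These shares were not tested.

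**Figure D5:**
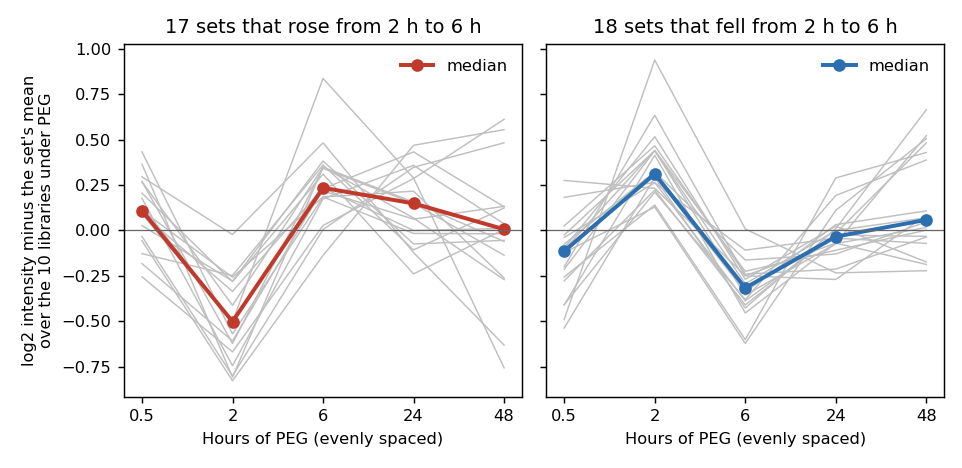
Levels of the 17 sets that rose and the 18 that fell at the 5 treated times, each relative to the set's own mean (log2 intensity), with thin lines for sets and a thick line for the median. The median of the risen sets is lowest at 2 h (-0.50) and that of the fallen sets is highest there (0.31) and lowest at 6 h (-0.32).

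A direct comparison of 6 h with 0.5 h was added after the data had been seen, and it shares the 6 h libraries with the step. It called 2 of 224 sets by limma (0.893%), both up, and 26 had an unadjusted p under 0.05. These were R53, with a log2 change of 0.99 (adjusted p = 0.00368), and R77, with 0.74 (adjusted p = 0.0308), named after their values were seen. Without the block 0 sets passed (11 had an unadjusted p under 0.05), and 0 passed when the first library of either 6 h or 0.5 h was left out (23 and 19 unadjusted). Leaving out library 2 of either time gave 1, and leaving out either 2 h library gave 8. The median size of this change was 0.13 among the 17 sets that rose from 2 h to 6 h and 0.15 among the 18 that fell, against 0.11 over all sets. By brightness group the median size was 0.05, 0.11, 0.18 and 0.16, from the dimmest to the brightest. No called set was in the dimmest group, so the value over all sets is not one for sets of like brightness. For R277 the change from 0.5 h to 6 h was -0.02 (95% interval -0.36 to 0.33), for R108 0.07 (-0.15 to 0.30), for R219 -0.05 (-0.43 to 0.33) and for R46 -0.04 (-0.29 to 0.20). With the block, the intervals of these 4 named sets reached 0.43 in size at most. Without it all 4 were wider, at -0.59 to 0.56 for R277, -1.37 to 1.27 for R219 and -0.69 to 0.60 for R46. For R108 the interval widened little, to -0.16 to 0.31. R63 differed more, with 0.70 (0.16 to 1.25), which did not pass the threshold (limma, adjusted p = 0.227) but passed when library 1 (0.0376) or library 2 (0.0361) of 2 h was left out.

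The means of the named sets over time show the same levels directly. R277 went through 10.29, 9.12, 10.28, 10.08 and 9.87 at 0.5, 2, 6, 24 and 48 h, and R108 through 9.75, 8.85, 9.82, 9.63 and 9.34. Both were lowest at 2 h. R219 went through 9.21, 10.04, 9.16, 9.13 and 9.49, with its highest level at 2 h. R46 went through 13.77, 14.60, 13.73, 14.11 and 14.70, so its 48 h mean was no lower than that of 2 h. R63 went through 13.25, 12.61, 13.95, 13.40 and 12.35, with a 48 h mean no higher than that of 2 h.

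The step was tested against its neighbours, which share its libraries: the step from 0.5 h to 2 h uses the same 2 h libraries and that from 6 h to 24 h the same 6 h libraries. A set that stood apart at 2 h would enter the step and the one before with opposite signs, so these comparisons are not independent. On its own the earlier step called 25 sets (11.2%; 14 rose and 11 fell), and the later step 10 (4.46%; 5 rose and 5 fell), both by the same limma fit. The difference between the step and the one before passed in 42 sets (18.8%) and that between the step and the one after in 24 (10.7%). These counts rested on the block, without which they were 1 and 0 for the neighbouring steps (28 and 9 at an unadjusted p under 0.05) and 1 and 0 for the differences (36 and 25). They also rested on single libraries. The earlier step gave 4 and 9 calls without library 1 and library 2 of 0.5 h, and the later step 0 and 3 without those of 6 h and 5 and 0 without those of 24 h. The difference from the step before gave 20 to 27 without any 1 library of 0.5, 2 or 6 h. The difference from the step after gave 0 without either 6 h library (37 and 38 unadjusted) and 12 and 9 without those of 24 h.

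The named sets were chosen for large changes from 2 h to 6 h, and that change is the first term of both differences, so a pass is favoured by the choice and is given as a description. The earlier step uses the same 2 h libraries with the opposite sign, so its passes are favoured by the choice as well. For these sets the earlier step gave -1.17 for R277, -0.89 for R108, 0.83 for R219 and 0.82 for R46, which passed (limma, adjusted p = 0.00217, 0.00126, 0.0152 and 0.00217). R63 had -0.64, which did not (adjusted p = 0.108) unless library 1 of 2 h was left out (0.00936). Without the block R108 alone passed (0.00999; the others 0.125 to 0.607), and R219 missed the threshold when the first 0.5 h library (0.119) or the first 2 h library (0.0527) was left out. The difference from the earlier step passed for all 5: it was 1.98 for R63 (adjusted p = 0.0125), 2.33 for R277 (0.000644), 1.86 for R108 (0.000287), -1.72 for R219 (0.0063) and -1.69 for R46 (0.000644). Without the block it passed for R108 alone (0.00297; the others 0.0501 to 0.445), and R63 missed the threshold when the second 2 h library (0.0835), the first 6 h library (0.0721) or the second 6 h library (0.0514) was left out. From 6 h to 24 h none of the 5 passed (0 sets), with log2 changes of -0.55 for R63, -0.19 for R277, -0.19 for R108, -0.02 for R219 and 0.38 for R46 and adjusted p of 0.0808 to 0.949. The difference from this later step passed for R63 (1.89, adjusted p = 0.0257), R277 (1.35, 0.0185), R108 (1.16, 0.0116) and R46 (-1.25, 0.0116), and not for R219 (-0.86, 0.109). All 4 of these passes were lost without the block (adjusted p = 0.0625 to 0.342), without library 1 of 6 h (0.0744 to 0.228) and without library 2 of 6 h (0.0667 to 0.194). R63 also missed the threshold without library 1 of 24 h (0.0699) and R277 without library 2 of 24 h (0.0531).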

How the data were processed

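Per the labels, small RNA was labelled by PCR with a Cy5 primer and hybridized in 1 colour. Per the file headers, the deposited scanner files hold linear spot intensity. The authors' deposited series table equals intensity minus background (largest difference 9e-06). The sources used here give no other upstream step. Here log2(intensity + 50) was computed from the deposited intensities and quantile normalized over the 20 arrays of the treated times, then averaged over the 4 spots of a set and the 2 hybridizations of a library. limma 3.58.1 (R 4.3.3) fitted time and library number over 10 libraries (4 residual degrees of freedom, two-sided tests), adjusted over 224 sets in each of 6 comparisons. Members, lists and tests were chosen with earlier results of these data known.

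The library numbers were taken as pairs because the rule that defined this comparison pairs libraries by number. In the same data, the difference between library 1 and library 2 correlated across sets between all 10 pairs of treated times. The correlations ran from 0.66 to 0.77, with 0.73 for 2 h and 6 h. What libraries of the same number have in common is not stated. Named by rule were the 2 largest rises and falls among called sets without overlap of libraries. Alternatives covered background, offset, scaling, spot average, hybridizations, libraries fitted, block and moderation.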

Additional observations from a re-analysis of the deposited data

Results flagged for a closer look

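For R46 at 6 h, the first hybridization of library 2 had a log2 intensity of 14.24, far from the other 3 arrays of that time, which lay between 13.53 and 13.58. It was the 1 array picked out in 16 groups of 4 arrays, where chance gives 0.8. With the first hybridizations only or the second only, R46 kept its fall.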

How the results depend on the processing

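R63, R277, R219, R46 and R108 each kept the direction of their 6 h minus 2 h change under all 24 alternatives. A count of called sets has no direction, so a reversal could not be judged for the comparisons. Their split into rises and falls did move with the scaling, as given above for 6 h minus 2 h. For 6 h minus 2 h (35 sets), 18 of 24 alternatives gave a count within 1.5 times. A like count did not always mean the same sets. Of the 27 sets called with second hybridizations only, 19 were among the 35. That held for 27 of the 33 called with first hybridizations only and 33 of the 37 called with an offset of 200. Leaving out 1 library of 2 h or 6 h left a lone library at that time, with the counts given above. The lone library left at a time is assumed to vary like the others. With no replicate block, limma called 1 set for 6 h minus 2 h, 1 for 2 h minus 0.5 h, 1 for the step minus the one before, and 0 for 24 h minus 6 h, the step minus the one after and 6 h minus 0.5 h (9, 25 and 11 at an unadjusted p under 0.05). With no scaling as well, it called 0 in all 6 (31, 15, 27, 7, 13 and 6 unadjusted, in the same order). Without scaling but with the block the step gave 79 and 6 h minus 0.5 h 5. Median scaling gave 103, 55, 73, 16, 71 and 23, in that order.

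The earlier step (25) gave 14 with an offset of 200, 45 over all 20 arrays with random library blocks, and 9 and 12 with first and second hybridizations only, and 4 to 29 without 1 library of 0.5, 2 or 6 h. The later step (10) gave 0 with an offset of 200 (28 unadjusted), 0 (33 unadjusted) and 3 with first and second hybridizations, 18 among the brighter 112 sets, and 0 to 9 without 1 library of 2, 6 or 24 h. The step minus the one before (42) gave 15 with first hybridizations and 20 to 27 without 1 library of 0.5, 2 or 6 h. The step minus the one after (24) gave 13 with an offset of 200, 5 and 7 with first and second hybridizations, and 0 to 28 without 1 library of 2, 6 or 24 h. For 6 h minus 0.5 h (2), cyclic loess gave 8, normexp 5, an offset of 16 4, random blocks 8, first hybridizations 0 (26 unadjusted), second 6, the brighter 112 sets 10, a trend in the moderation 5, subtraction of each array's floor 5, and leaving out spots marked by the scanner software 5; without 1 library of 0.5, 2 or 6 h it gave 0 to 8. Among the brighter 112 sets, 89 moved the same way in both pairs. The cause of these shifts was not tested. With each array's floor subtracted the step gave 40 sets. The floor, the spots marked by the scanner software, the fit without block and scaling, the alternatives of the count of sets moving the same way, the leaving out of 0.5 h and 24 h libraries and 6 h minus 0.5 h were added after seeing the data. Local background was near 0, so signal over background could not be judged.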
